A study of Arabidopsis thaliana with 8 samples.

Results

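The loci described here are *Arabidopsis* genes with several transcript models whose downstream windows hold different read counts, in most of which the annotated 3′ ends differ (1661 of 1840 on the reference used here). They were chosen by measured values: a locus was taken when the files list 2 or more of its transcript models and 2 of these had different read counts in at least 4 of the 8 libraries, each with a sum of 20 or more counts over the 8 libraries. Of 31109 loci in the files, 5812 have 2 or more models and 1840 met the rule. The lowest-numbered pair of models that met it stands for each locus. The sums and the differences between models therefore describe the choice and carry no test, whereas the rule used no difference between genotypes.

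The samples were 9-day-old Col-0 seedlings, with 2 replicates in each of 4 lines. *fip37L* is, by the study's methods, the *fip37-4* mutant with FIP37 supplied from the *LEC1* promoter, which is active in the embryo. *cpsf30-3* is an insertion line without the long isoform of CPSF30, *cpsf30-1* lacks both isoforms, and WT is Col-0. Each mutant is 1 line, and the methods describe a richer medium with sucrose for *fip37-4* and its derivatives, so that genotype and medium cannot be told apart in *fip37L*. Nothing in the labels says that replicates came from separate cultures, and p-values measure only the spread between these samples. The seedling identity could not be checked against marker genes because the files hold reads downstream of genes and not of gene bodies.

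Most plant genes can be cleaved and polyadenylated at more than 1 site. The cleavage and polyadenylation machinery, of which CPSF30 is a subunit, reads sequence elements upstream of the cleavage site. FIP37 belongs to the complex that writes N6-methyladenosine (m6A) on mRNA, and the long isoform of CPSF30 carries a YTH domain that binds m6A. The comparison of each mutant with WT asks whether the position at which reads stop along a gene differs when the mark, its CPSF30 reader or all CPSF30 is missing.

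Each value is the number of reads in the 500 bases just downstream of 1 transcript model's end. A read in the window of the nearer (proximal) end comes from RNA that continued past that end or from another gene located there. A read in the window of the farther (distal) end comes from RNA that continued past both ends or likewise from another gene. The distal share is the percentage of the counts of both windows that fell in the distal one. A higher distal share therefore means relatively more reads beyond the farther end, and is not a measure of how often that end was used.

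The last 30 bases before both annotated ends are shown for 4 called loci, 3 of them free of other genes and 1 with the lowest p, to show what the compared ends are. They are read 5′ to 3′ on the strand of the gene from the TAIR10.1 assembly, and capitals mark the hexamer AATAAA, the classical near upstream element, searched on the strand of the gene only. AT4G28860 and AT3G60750 had no other annotated gene in either window, nor had *ATHM2*. Their positions are chr4:14249053-14249082 and chr4:14249843-14249872 for AT4G28860 (plus strand), chr3:22456906-22456935 and chr3:22457429-22457458 for AT3G60750 (plus strand), chr4:1562480-1562509 and chr4:1562203-1562232 for *ATHM2* (minus strand), and chr5:6205077-6205106 and chr5:6205708-6205737 for AT5G18630 (plus strand).
AT4G28860.2, proximal: gcagatgaacatgccatcatccacttcatt
AT4G28860.1, distal: catgcattttcaattgctattattaaaaaa
AT3G60750.2, proximal: tcatatctcgaAATAAAgtgcaacaagaca
AT3G60750.1, distal: aaacgatttagaaagacaatgtaaaactcc
AT4G03520.2 (ATHM2), proximal: ttatcactgaacatctagacctggataaat
AT4G03520.1 (ATHM2), distal: aatgaatgagcacatgtatgcaaaaggggc
AT5G18630.3, proximal: ctacattagcaagaacaaacttccaagtcg
AT5G18630.1, distal: attaatcaaagtacaaacatcattttactt

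AATAAA occurred in 1 of these 8 stretches, before the proximal end of AT3G60750, where 13 bases separate it from the end. It occurred in 6.16% of all 35854 distinct annotated ends, in 6.98% of the 1661 proximal and 6.08% of the 1661 distal ends of the chosen loci. A match is a description of the letters and not a mapped site, and the absence of this hexamer says nothing of other elements.

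Of the 1840 loci, 1661 have models whose ends lie at different reference positions on 1 strand, 156 have models with the same reference end and 23 could not be placed. The reference ends come from the annotation of TAIR10.1, whereas the authors' windows were defined on TAIR10. Among pairs of models that share a reference end, 86.4% had identical counts in all libraries, but only 52% of the model pairs with identical counts share a reference end. Proximal and distal are therefore the reference's order, and could be wrong for single loci, above all where the ends lie a few bases apart. The test itself compared the 2 windows without use of position, and the order was applied to its result.

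The ends were a median of 100 bases apart, with quartiles of 36 and 261 bases and a largest distance of 10384 bases. In 1456 loci the distance was under 500 bases, so that the windows overlap and share reads, which damps a change of their ratio, and in 205 loci it was 500 bases or more. The proximal end lay in the last exon of the distal model in 1408 loci (84.8%), in an intron of it in 197 (11.9%) and in an upstream exon in 56 (3.37%). The windows of 279 placed pairs overlap no other annotated gene, those of 772 overlap genes on the opposite strand only and those of 610 overlap another gene on the same strand. Reads of such genes can enter a window. The library kit is stranded and the study describes strand-specific density, but of 22 pairs of windows that lie on opposite strands at the same place within 5 bases, 2 had identical counts in all 8 libraries and 7 agreed within 1.1-fold, while 8 differed over 2-fold. Whether the deposited counts kept strand is therefore uncertain, and results are given separately for pairs free of other genes.

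Just inside the rule, 93 loci had a smaller window of 20 to 24 counts over the 8 libraries and 80 differed in exactly 4 libraries. Just outside it, 129 tested pairs had a smaller window of 15 to 19 counts and 58 differed in exactly 3 libraries. The smaller window of a chosen locus held a median of 238 counts and the larger 571. Libraries held 5862499 to 8411827 counts in all, of which the windows of the chosen loci took 27.3% to 28.8%.

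In pairs free of other genes most reads fell in the proximal window. In WT the proximal window held more counts than the distal one in 209 of the 279 free pairs (74.9%) and in 38 of the 42 free pairs with ends at least 500 bases apart (90.5%). Where another gene overlaps, that share was 51.8% (opposite strand only) and 55.4% (same strand), and the median distal share lay between 49.5% and 50% in every library. Over the 279 free pairs the median distal share was 33.3% in both *fip37L* libraries, 32.7% and 36.4% in *cpsf30-3* plants, 37.6% and 38.1% in *cpsf30-1*, and 30.6% and 30% in WT. All 6 mutant libraries were above both WT libraries, and the *cpsf30-1* libraries were highest. With counts summed over these pairs the distal share was 13.4% and 12.1% in *fip37L* plants, 12% in both *cpsf30-3* libraries, 14.3% and 14.4% in *cpsf30-1*, and 11.6% and 11.5% in WT. With 2 libraries against 2 an exact permutation test cannot give a p below 0.33, so these medians are a description.

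**Figure D1:**
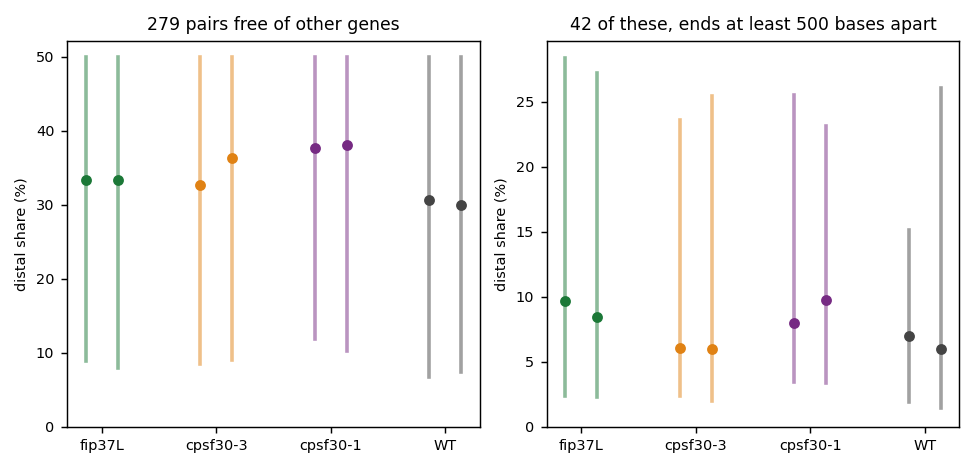
Distal share (percent of the counts of both windows) in each library, for the 279 pairs free of other genes (left) and the 42 of these with ends at least 500 bases apart (right). Points are medians over loci and bars run from the lower to the upper quartile; in the left panel the medians are 37.6% and 38.1% in *cpsf30-1* and 30.6% and 30% in WT.

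Over the 42 free pairs with ends at least 500 bases apart, whose windows share no bases, the median distal share was 9.7% and 8.47% in *fip37L* plants, 6.05% and 5.96% in *cpsf30-3* plants, 8.01% and 9.77% in *cpsf30-1*, and 7% and 5.97% in WT. Here the *fip37L* and *cpsf30-1* libraries were above both WT libraries and the *cpsf30-3* libraries overlapped them. The summed counts of these pairs gave 4.25% and 3.87% in *fip37L* plants, 3.01% and 3.19% in *cpsf30-3* plants, 4.84% and 4.8% in *cpsf30-1*, and 2.59% and 2.74% in WT.

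The change of the distal-to-proximal ratio was then tested for each locus in 1 fit of all 8 libraries with the quasi-likelihood test of edgeR, over 2406 pairs of windows. The fit takes the 2 windows as separate counts, but in most ordered pairs they share reads. The p-values of those pairs, and the spread estimated over the whole table, are therefore approximate. A locus counted as called when its p, adjusted after Benjamini-Hochberg over all pairs, was under 0.05 and the log2 ratio differed by 1 or more. The 3 comparisons share the WT libraries, so their values are given side by side and no overlap of their calls is read. *cpsf30-1* had 49 called loci among 1840, *fip37L* had 12 and *cpsf30-3* had 3, each against WT. Over all tested pairs the called percentage was 2.08% in *cpsf30-1*, 0.499% in *fip37L* plants and 0.125% in *cpsf30-3* plants, close to those of the chosen loci (2.66%, 0.652% and 0.163%), which make up most of the tested table. All 49, 12 and 3 had mutant and WT shares that did not overlap, which a call of this size nearly requires, so it adds no support. An unadjusted p under 0.05 was found at 241, 155 and 102 of the 1840 loci in *cpsf30-1*, *fip37L* and *cpsf30-3*. A proportion of 0.05 would be expected to pass without any change. The *cpsf30-3* number is near that in this fit, but limma gave 219 and DESeq2 46 of the 1840 loci. In all, 55 loci were called in at least 1 mutant. Of the calls, 4 in *cpsf30-1* (*ERD15*, *AGP9*, AT3G10820 and AT2G13650) and 1 in *fip37L* (AT3G10820) had a window that reached 20 counts only with the group in which it was high. They remain in the counts and medians of called loci given here.

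In *cpsf30-1* the distal share rose at 35 loci and fell at 11, against 1.67% and 0.51% of all tested pairs with an order, and 3 called loci had no order. In *fip37L* it rose at 6 and fell at 6 (0.278% and 0.278% of all tested pairs with an order), a split that depended on the fit: limma called 21 higher and 6 lower, and a fit of the pairs with ends at least 500 bases apart alone called 11 higher and 4 lower. In *cpsf30-3* it rose at 3 and fell at 0 (0.139% and 0%), and DESeq2 also called 3 loci higher and 0 lower. At an unadjusted p under 0.05 in edgeR, 52 ordered loci were higher there and 39 lower, together also near the number expected without any change. Of these, 18 and 15 were among the 205 loci with ends at least 500 bases apart, a proportion above 0.05. The 1456 loci with closer ends, whose windows share reads, had 34 and 24. On the log2 scale, the median change over the 1661 ordered loci was 0.01 in *fip37L* plants, 0.01 in *cpsf30-3* plants and 0.00 in *cpsf30-1*. Shared reads damp the change where windows overlap, and rises and falls cancel in a median. It therefore does not tell how many loci kept their ratio. In *cpsf30-1* the quartiles were -0.117 and 0.171 with ends under 500 bases apart. They were -0.362 and 0.715 with ends at least 500 bases apart. Over the 279 free pairs the median change was 0.09, 0.09 and 0.19, with 155, 160 and 177 loci above 0. Of all 1661 ordered loci 922, 919 and 888 were above 0, a similar proportion in *fip37L* and *cpsf30-3*. Among these free pairs the share was called higher at 8 and lower at 2 in *cpsf30-1*, higher at 1 and lower at 1 in *fip37L* plants, and at none in *cpsf30-3*.

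**Figure D2:**
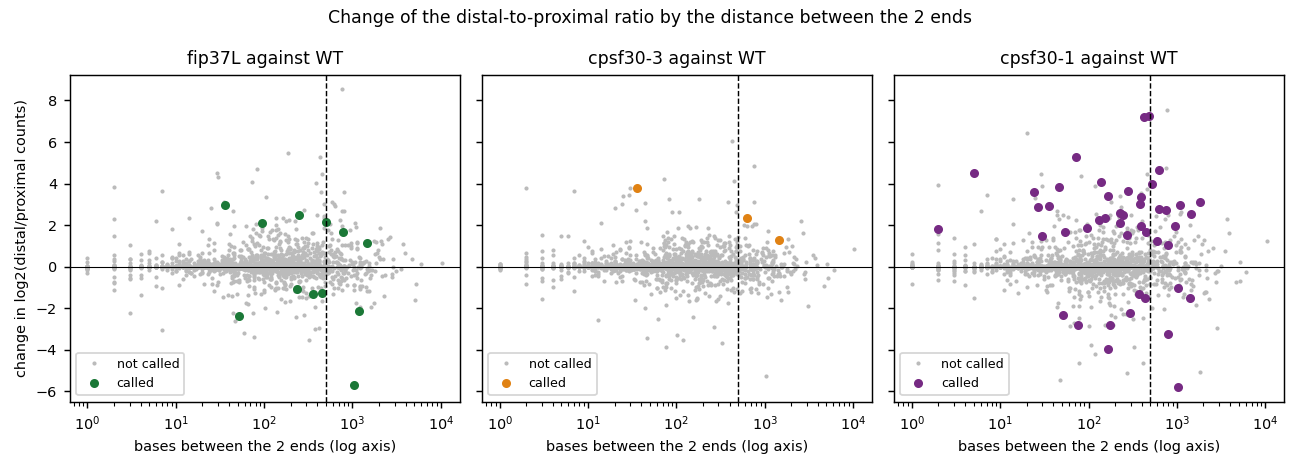
Change of log2(distal/proximal counts) in each mutant against WT for the 1661 ordered loci (y axis) by the distance between both ends in bases (x axis, log scale). Grey points were not called, coloured points were called, and the dashed line stands at 500 bases, beyond which windows share no bases; the called loci number 12, 3 and 46 in *fip37L* plants, *cpsf30-3* and *cpsf30-1*.

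The calls depended on having all 8 libraries. In *cpsf30-1* against WT, 5 loci were called without WT replicate 1 and 5 without WT replicate 2, 11 without *cpsf30-1* replicate 1 and 6 without its replicate 2, 11 without either *cpsf30-3* replicate and 30 without either *fip37L* replicate. Only 4 of the 49 calls held in all 8 of these fits, namely AT5G18630, AT1G19396, AT1G11860 and *GRP-3*, whereas each of the 49 kept its sign in all 8. In *fip37L*, 0 loci were called without either WT replicate, 3 without *fip37L* replicate 1 and 7 without its replicate 2, 2 without either *cpsf30-3* replicate and 6 without either *cpsf30-1* replicate, and in *cpsf30-3* 0 loci were called in any of the 8 fits. With only the 2 groups compared in the fit, 1 locus was called in *cpsf30-1* and 0 in *fip37L* plants and in *cpsf30-3*, at unadjusted p under 0.05 of 212, 135 and 92 loci.

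The 4 loci that held in all 8 fits are described first. AT5G18630 encodes a protein of the alpha/beta-hydrolase superfamily. Its distal window held 34 and 13 counts in *fip37L*, 86 and 50 in *cpsf30-3* plants, 182 and 222 in *cpsf30-1*, and 9 and 10 in WT. Its proximal window held 1505 and 746 counts in *fip37L*, 1199 and 868 in *cpsf30-3* plants, 562 and 678 in *cpsf30-1*, and 743 and 742 in WT. The distal share was thus 24.5% and 24.7% in *cpsf30-1* and 6.69% and 5.45% in *cpsf30-3* plants, against 1.2% and 1.33% in WT, and no *cpsf30* library overlapped WT. The log2 ratio changed by 4.65 ± 0.14 (SE) in *cpsf30-1* (edgeR adjusted p = 0.001) and by 2.35 ± 0.19 in *cpsf30-3* (adjusted p = 0.046), and by 0.69 ± 0.24 in *fip37L* (adjusted p = 0.8). The *cpsf30-3* call was lost in each of the 8 fits with 1 library left out (adjusted p of 0.13 to 0.48). The proximal end lies in an intron of the distal model, 631 bases upstream, and the distal window overlaps AT5G18633 on the same strand.

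AT1G19396, an uncharacterized gene, was called in all 3 mutants. Its distal share was 92.9% and 93.3% in *fip37L* plants, 93.5% and 94.2% in *cpsf30-3* plants, 97.8% and 97% in *cpsf30-1*, and 86.3% and 85.5% in WT. Every mutant library was above both WT libraries, with log2 ratio changes of 1.12 ± 0.09, 1.31 ± 0.09 and 2.56 ± 0.13 (SE) in *fip37L*, *cpsf30-3* and *cpsf30-1* (edgeR adjusted p = 0.021, 0.046 and 0.0035). In *cpsf30-1* the proximal window carried the change, with 7 and 13 counts in *cpsf30-1* against 75 and 71 in WT, while the distal window held 310 and 417 against 473 and 418. In *fip37L* the proximal window changed by -0.71 and the distal one by 0.39 on the log2 scale, and in *cpsf30-3* by -0.82 and 0.48, none of them called. The *fip37L* call was lost in 6 of the 8 fits and the *cpsf30-3* call in all 8, and DESeq2 made neither (adjusted p = 0.29 and 0.21). Other genes overlap both windows, AT1G19394 on the same strand and AT1G19400 on the opposite one.

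AT1G11860, a member of the glycine cleavage T-protein family, which takes part in photorespiration, had 158 and 163 distal counts in *cpsf30-1* against 41 and 32 in WT. Its proximal window held 3421 and 3847 counts in *cpsf30-1* and 3250 and 3213 in WT. The share was 4.42% and 4.07% in *cpsf30-1*, against 1.25% and 0.986% in WT, a log2 ratio change of 1.96 ± 0.10 (SE, edgeR adjusted p = 0.0036). Its ends lie 393 bases apart, so the windows share bases, and both overlap AT1G11870 on the same strand. *GRP-3*, a glycine-rich protein gene, has models with the same reference end, so its windows could not be ordered. Its second window held 98 and 149 counts in *cpsf30-1*, 31 and 18 in *cpsf30-3* plants, 8 and 3 in *fip37L* plants, and 5 and 6 in WT, and its first window 162 and 251 in *cpsf30-1* against 170 and 142 in WT. The share of the second window was 37.7% and 37.2% in *cpsf30-1* against 2.86% and 4.05% in WT, with a log2 ratio change of 4.05 ± 0.17 (SE, edgeR adjusted p = 0.0026). AT1G11860 and *GRP-3* lie outside the naming rule and were singled out after their values were seen.

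In *fip37L*, 1 locus of each direction came from free pairs. AT4G28860 (*CKL4*), which encodes a casein kinase I-like protein, had 253 and 167 distal counts beside 661 and 430 proximal counts in *fip37L*, and 57 and 80 distal beside 557 and 570 proximal counts in WT. The distal share was 27.7% and 28% in *fip37L* plants, against 9.28% and 12.3% in WT, with 14.7% and 16.7% in *cpsf30-3* plants and 20.7% and 19.2% in *cpsf30-1*. All mutant libraries were above WT, and the *fip37L* ratio changed by 1.66 ± 0.14 on the log2 scale (SE, edgeR adjusted p = 0.023). In *cpsf30-1* the change was 1.03 ± 0.16 (adjusted p = 0.05 when rounded, just under the threshold; 0.096 in DESeq2). With 1 library left out the *fip37L* adjusted p ran from 0.053 to 0.2 and the change from 1.45 to 1.91. The ends are 790 bases apart in the last exon of the distal model, so the windows share no bases.

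*EMB2820* (AT5G24670), a cytidine and deoxycytidylate deaminase family gene, moved the other way in the reference's order. Its distal share was 73.3% and 74.3% in *fip37L* plants and 76.9% and 71.8% in *cpsf30-1*, against 92.9% and 94.3% in WT, with 85% and 86.2% in *cpsf30-3* plants. The proximal window held 47 and 26 counts in *fip37L* and 15 and 22 in *cpsf30-1*, against 8 and 6 in WT. The log2 ratio fell by 2.35 ± 0.16 in *fip37L* (SE, edgeR adjusted p = 0.012) and by 2.32 ± 0.18 in *cpsf30-1* (adjusted p = 0.011), and with 1 library left out the adjusted p reached 0.17 and 0.11. Its ends lie only 52 bases apart on the reference, so that most bases of the windows are shared. The WT libraries nevertheless held 8 and 6 proximal against 104 and 99 distal counts. The reference ends or their order may therefore be wrong here, and the direction rests on them. The study lists this gene among putative extended mRNAs of another mutant, *nerd-1*. Its list of genes with more downstream reads in *nerd-1* also holds AT4G28860, AT5G46160 and AT1G05890.

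The largest rises in *fip37L* among pairs that overlap other genes with at least 20 counts in every library of both groups were at *ARI5* (AT1G05890), a RING/U-box gene that the study followed up, and AT5G46160, a ribosomal protein L14p/L23e family gene. *ARI5* had 80 and 45 distal counts beside 96 and 46 proximal counts in *fip37L*, and 7 and 7 distal beside 45 and 45 proximal counts in WT. Its distal share was 45.5% and 49.5% in *fip37L* plants, 19.5% and 22.6% in *cpsf30-3* plants, 28.3% and 26.4% in *cpsf30-1*, and 13.5% in both WT libraries. The *fip37L* change was 2.48 ± 0.15 (SE, edgeR adjusted p = 0.0091), and those in *cpsf30-3* (0.75 ± 0.18, adjusted p = 1.0) and *cpsf30-1* (1.26 ± 0.19, adjusted p = 0.23) were not called. Without WT replicate 1 or 2 the *fip37L* adjusted p was 0.18 and 0.15, and the call held in the other 6 fits. Both windows overlap AT1G05894 on the same strand, which the study lists with *ARI5* as a putative chimeric mRNA of *nerd-1*. The study's 3′ RACE of *fip37L* plants, which included *ARI5*, reported long chimeric mRNAs. AT5G46160 had a distal share of 32.2% and 34.1% in *fip37L* against 8.33% and 11.1% in WT (change 2.15 ± 0.23, adjusted p = 0.042), a call that no fit with 1 library left out kept and that DESeq2 did not make (adjusted p = 0.37).

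The largest falls in *fip37L* among pairs that overlap other genes were at AT3G10820, of the TFIIS family of transcription elongation factors, and AT2G41640, a glycosyltransferase of family 61. The proximal window of AT3G10820 held 6 and 5 counts in *fip37L*, 4 and 3 in *cpsf30-3* plants and 5 and 4 in *cpsf30-1*, against 0 in both WT libraries, beside 187 and 203 distal counts in *fip37L* plants, 149 and 153 in *cpsf30-1* plants, and 234 and 231 in WT. With 3 counts over the WT group as the floor, the proximal-to-distal ratio was at least 4.37-fold higher in *fip37L* and at least 4.62-fold higher in *cpsf30-1*. The proximal window held 16 counts without *fip37L* and 18 without *cpsf30-1*, under the 20 of the rule, so these values are a description with no test, and DESeq2 made neither call. AT2G41640 had 392 and 268 proximal counts beside 1074 and 976 distal counts in *fip37L*, and 44 and 38 beside 579 and 556 in WT, so that both windows were higher and the proximal one more so. Its distal share was 73.3% and 78.5% in *fip37L* against 92.9% and 93.6% in WT, a fall by 2.15 ± 0.24 on the log2 scale (SE, edgeR adjusted p = 0.047, and up to 0.43 with 1 library left out).

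**Figure D3:**
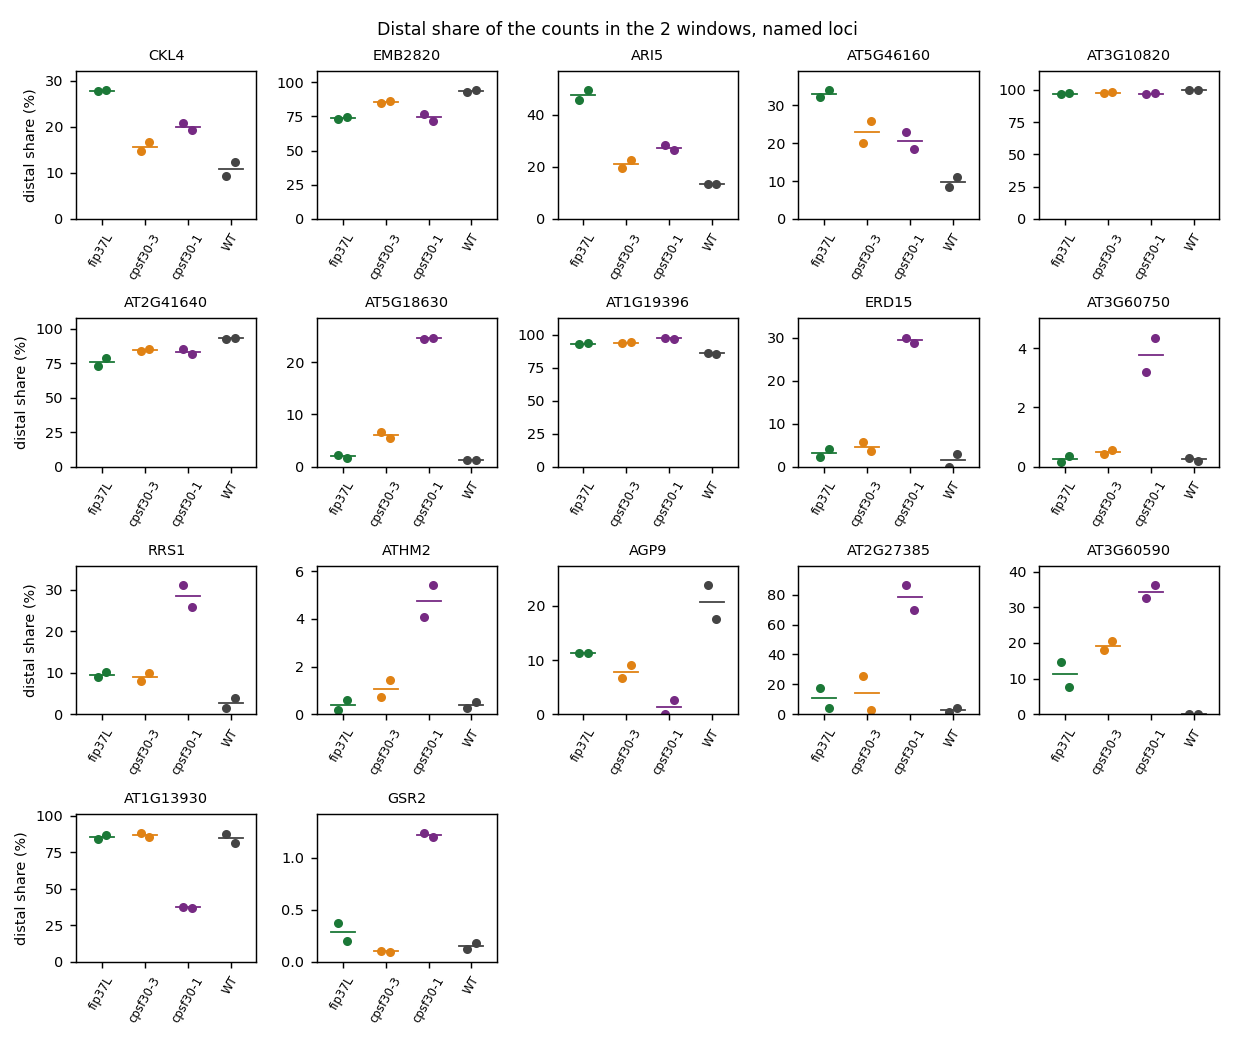
Distal share (percent of the counts of both windows) in each of the 8 libraries at the 17 loci named by the rule. Points are libraries, lines are the means of 2 replicates and each panel's y axis starts at 0; in the panel of AT5G18630 both *cpsf30-1* libraries stand near 24.5% and both WT libraries near 1.2%.

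In *cpsf30-1* the 4 largest rises among free pairs were at *ERD15*, AT3G60750, *RRS1* and *ATHM2*. AT3G60750, a transketolase of carbon metabolism, had the deepest counts: 139 and 225 distal beside 4223 and 4932 proximal counts in *cpsf30-1*, and 14 and 8 distal beside 4660 and 4315 proximal counts in WT. Its distal share was 3.19% and 4.36% in *cpsf30-1*, against 0.299% and 0.185% in WT, and lay between 0.156% and 0.56% in the *fip37L* and *cpsf30-3* libraries. The log2 ratio changed by 4.0 ± 0.36 (SE, edgeR adjusted p = 0.015, and up to 0.16 with 1 library left out). The ends are 523 bases apart, so the windows share no bases.

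*ATHM2*, a thioredoxin superfamily gene, had 29 and 49 distal counts in *cpsf30-1* against 2 and 4 in WT, beside 679 and 857 proximal counts in *cpsf30-1* and 764 and 752 in WT. The distal share was 4.1% and 5.41% in *cpsf30-1* against 0.261% and 0.529% in WT (change 3.63 ± 0.45, SE, edgeR adjusted p = 0.03, and up to 0.23 with 1 library left out). *RRS1*, a disease resistance gene of the TIR-NBS-LRR class, had 14 and 14 distal counts in *cpsf30-1* against 1 and 2 in WT, which gives a ratio 15.5-fold higher with an exact 95% counting interval of 4.53 to 82.4 (adjusted p = 0.015). Its ends lie 46 bases apart, so that most bases of the windows are shared. *ERD15*, a dehydration-induced gene, had 21 and 23 distal counts in *cpsf30-1* against 0 and 1 in WT. Without the *cpsf30-1* libraries its distal window held 10 counts in all, under the 20 of the rule, so that it was chosen through the line in which it was high and its change is given with no test. Its reference ends lie 5 bases apart.

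The falls among free pairs in *cpsf30-1* were *EMB2820*, given above, and *AGP9*, which encodes an arabinogalactan protein of the cell surface. *AGP9* had 0 and 1 distal counts in *cpsf30-1* against 10 and 6 in WT, beside 36 and 36 proximal counts in *cpsf30-1* and 32 and 28 in WT. Without WT its distal window held 16 counts in all, under the 20 of the rule, so its values too are a description, and its call was lost in all 8 fits with 1 library left out and in DESeq2. *ERD15*, *ATHM2* and AT2G27385 were likewise not called in any of these 8 fits, whereas AT3G60750 was called in 3 and *RRS1* in 2.

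Among pairs that overlap other genes, the largest *cpsf30-1* rises were at AT2G27385, of the Pollen Ole e 1 allergen and extensin family, and AT3G60590, of the cytochrome P450 family. AT2G27385 had 82 and 28 distal beside 13 and 12 proximal counts in *cpsf30-1*, and 1 and 3 distal beside 81 and 70 proximal counts in WT. Its distal share of 86.3% and 70% in *cpsf30-1*, against 1.22% and 4.11% in WT, came from a fall of the proximal window and a rise of the distal one, which overlaps AT2G27380 on the opposite strand. The *fip37L* (17.6% and 3.85%) and *cpsf30-3* (25.4% and 3.03%) replicates differed several-fold from each other there. The *cpsf30-1* change was 7.28 ± 0.94 (SE, edgeR adjusted p = 0.032), and with 1 library left out the adjusted p ran from 0.074 to 0.28.

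AT3G60590 had 30 and 38 distal counts in *cpsf30-1*, 11 and 9 in *cpsf30-3* plants and 6 and 2 in *fip37L* plants, against 0 in both WT libraries, beside 62 and 67 proximal counts in *cpsf30-1* and 32 and 40 in WT. With 3 counts over the WT group as the floor, its distal-to-proximal ratio was at least 12.7-fold higher in *cpsf30-1* (edgeR adjusted p = 0.021). The distal share was 32.6% and 36.2% in *cpsf30-1*, 18% and 20.5% in *cpsf30-3* plants, and 14.6% and 7.69% in *fip37L* plants. Both its windows overlap AT3G60600 on the same strand.

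The largest fall in *cpsf30-1* among pairs that overlap other genes, beside AT3G10820, was at AT1G13930, which encodes an oleosin-B3-like protein. Its proximal window held 170 and 203 counts in *cpsf30-1*, against 26 and 34 in WT, and its distal window 103 and 118 against 184 and 150. The distal share was 37.7% and 36.8% in *cpsf30-1* and 87.6% and 81.5% in WT, while the *fip37L* (84.3% and 86.8%) and *cpsf30-3* (88.2% and 85.7%) libraries were close to WT. The log2 ratio fell by 3.23 ± 0.18 (SE, edgeR adjusted p = 0.0036), and the call held in 7 of the 8 fits with 1 library left out (adjusted p = 0.056 without *cpsf30-1* replicate 2). The ends are 797 bases apart and the proximal end lies in an intron of the distal model.

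The other called loci of *cpsf30-1* are given by group, and those named were picked after their values were seen. *LHCA3*, a chlorophyll-binding protein of the photosystem I antenna, had 76 and 75 distal counts in *cpsf30-1* against 18 and 12 in WT, beside 18147 and 20671 proximal counts in *cpsf30-1* and 22680 and 21138 in WT (change 2.50 ± 0.17, SE, edgeR adjusted p = 0.0067). The distal share of *CAT2*, a peroxisomal catalase, was 53.4% and 56.7% in *cpsf30-1* against 31.8% and 29.8% in WT (change 1.47 ± 0.08, adjusted p = 0.0036). *GAPA-2*, a glyceraldehyde-3-phosphate dehydrogenase of the Calvin cycle, was called in all 3 mutants, with 25% and 22.2% in *fip37L* plants, 35% and 38.5% in *cpsf30-3* plants and 20.8% and 26.4% in *cpsf30-1*, against 4.25% and 3.45% in WT. These *GAPA-2* shares rest on 4 to 19 distal counts in a mutant library and 4 and 3 in WT, and the proximal window fell, with 13 and 8 counts in *cpsf30-3* against 90 and 84 in WT. The *fip37L* call held in 2 of the 8 fits with 1 library left out (adjusted p up to 0.56), the *cpsf30-3* call in 0 (0.066 to 0.76) and the *cpsf30-1* call in 5, and the ends lie 36 bases apart.

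The 35 loci with a higher distal share in *cpsf30-1* changed by 1.03 to 7.28 on the log2 scale, with a median of 2.77, and the 11 with a lower one by -5.78 to -1.01, with a median of -2.32. These are fitted values, and AT3G60590, AT2G13650 and AT3G10820 had a window at 0 in WT, so that theirs depend on the fit. With these 3 at their bounds the medians were 2.73 and -2.23, and the other lower loci ran from -3.97 to -1.01. Of the 35, 8 pairs were free of other genes, 13 overlap genes on the opposite strand only and 14 overlap a gene on the same strand. The proximal end lay in the last exon at 24, in an intron at 8 and in an upstream exon at 3. By site, 5.58% of the 197 loci with an intronic proximal end were called in *cpsf30-1*, 8.93% of the 56 with one in an upstream exon and 2.13% of the 1408 with one in the last exon. By distance, 6.83% of the 205 loci with ends at least 500 bases apart were called and 2.2% of the 1456 with ends closer than that, whose windows share bases. Why these rates differ was not tested. When the 205 were fitted alone, 36 of them were called in *cpsf30-1* (25 higher and 11 lower) and 15 in *fip37L*, against 14 and 5 in the fit of all pairs. The hexamer AATAAA preceded 2 of the 35 proximal ends (5.71%) and 1 of the 35 distal ends (2.86%) of the loci with a higher share.

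Each window was also tested alone against WT, in a fit over 17347 windows of all transcript models. At the 35 loci with a higher distal share in *cpsf30-1* the distal window was called higher at 31 and lower at 0, and the proximal window higher at 1, lower at 4 and not called at 30. At 28 of them the distal window was called higher and the proximal one not called. At the 11 loci with a lower distal share the proximal window was called higher at 6 and the distal window lower at 1, at *DL1*, a dynamin-like gene. In *fip37L* the distal window was called higher at 4 of the 6 loci with a higher share. These counts come from the same reads as the share test and describe which window moved.

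**Figure D4:**
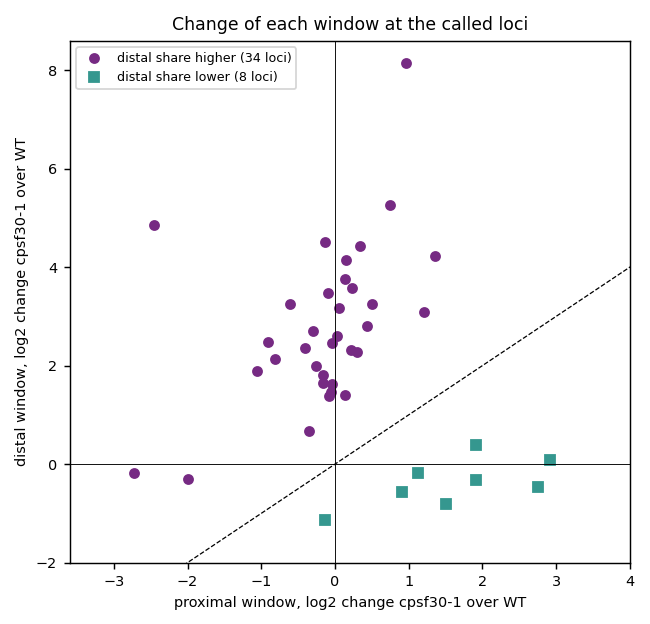
Log2 change of the proximal window (x axis) and of the distal window (y axis) in *cpsf30-1* over WT, for the 42 called and ordered loci with both windows tested. Circles are the 34 of these with a higher distal share and squares the 8 with a lower one, and the dashed line marks equal change; most circles lie above 1 on the y axis and near 0 on the x axis.

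Over all ordered loci, 1506 proximal and 1380 distal windows passed the filter on low counts, a filter that a window high in 1 group alone can pass. In *cpsf30-1* 141 proximal windows were called higher and 26 lower, and 184 distal windows higher and 26 lower, against 11% higher and 2.46% lower among all windows tested. In *fip37L* 89 proximal windows were called higher and 35 lower, and 101 distal windows higher and 28 lower (all windows: 6.81% and 2.75%), and in *cpsf30-3* 22 and 1 proximal and 19 and 0 distal windows (1.3% and 0.138%). Among free pairs in *cpsf30-1*, 55 of 160 tested distal windows were called higher (34.4%) and 43 of 227 proximal ones (18.9%), with median log2 changes of 0.82 and 0.27. In bulk seedlings, fewer cells of a type and less RNA per cell cannot be told apart. The gene's own expression was not measured here, so a window alone can follow it. The share compares 2 windows of the same gene, but where another gene overlaps a window, as in most pairs, that gene's reads can also move the share.

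*cpsf30-1* was compared with *cpsf30-3*, since the first lacks both isoforms and the second only the long one. The share was called at 10 loci (0.416% of all tested pairs), with the distal share higher at 8 and lower at 1 (0.371% and 0.0463% of pairs with an order). The largest rises in *cpsf30-1* were at *GSR2*, a glutamine synthetase gene, and *ERD15*, and the 1 fall was at AT1G13930. *GSR2* had 20 and 23 distal beside 1593 and 1896 proximal counts in *cpsf30-1*, and 2 and 2 distal beside 1971 and 2013 proximal counts in *cpsf30-3*, with a log2 ratio change of 3.54 ± 0.32 (SE, edgeR adjusted p = 0.029). Its share was 1.24% and 1.2% in *cpsf30-1*, 0.101% and 0.0993% in *cpsf30-3* plants, and 0.119% and 0.183% in WT. *ERD15*, chosen through its *cpsf30-1* counts, had 21 and 23 distal counts in *cpsf30-1* and 4 and 2 in *cpsf30-3*. For AT1G13930 the change was -3.50 ± 0.19 (adjusted p = 0.0084). AT5G18630 also differed between both lines, by 2.31 ± 0.09 (adjusted p = 0.004), and *GRP-3* by 1.76 ± 0.13 (adjusted p = 0.013). None of the 10 calls held in all 8 fits with 1 library left out, where between 0 and 5 loci were called: 0 without *cpsf30-1* replicate 1, 2 without its replicate 2, 1 without either *cpsf30-3* replicate, 2 without either WT replicate and 5 without either *fip37L* replicate.

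Genes that act in the same pathways were looked up by list. Of 30 genes for cleavage and polyadenylation 8 were among the chosen loci, and 0 of the 8 were called in any comparison with the edgeR test, with 0, 1 and 3 at an unadjusted p under 0.05 in *fip37L* plants, *cpsf30-3* and *cpsf30-1*. Over all 1840 loci 12, 3 and 49 were called and 155, 102 and 241 had such a p. At these rates 0 calls are usual among 8 loci and say nothing about the pathway. Their median change over the 6 with an order was -0.01, 0.09 and 0.15 on the log2 scale, beside the median over all ordered loci of 0.01, 0.01 and 0.00. *FCA*, an RNA-binding flowering regulator known to promote polyadenylation within its own transcript, had a distal share of 9.38% and 12.4% in *fip37L* plants, 11% and 8.91% in *cpsf30-3* plants, 23.9% and 18% in *cpsf30-1*, and 12.2% and 9.32% in WT. Both *cpsf30-1* libraries were above all others, but the change of 1.11 ± 0.26 (SE) was not called (edgeR adjusted p = 0.17). *FPA*, which also controls its own 3′ end, had 54.6% and 59% in *cpsf30-1* against 71.2% and 62.6% in WT, a change of -0.61 ± 0.22 that was not called (adjusted p = 0.38). Both genes were picked after their values were seen. *CPSF73-I*, also not called, has models with the same reference end. Its second window had 13.3% and 22% of the counts in *cpsf30-1*, and 14.5% and 18.7% in *cpsf30-3* plants. The values were 30.1% and 25.3% in *fip37L* plants, and 39.8% and 31.2% in WT. *FIP37* and *CPSF30* themselves did not meet the rule.

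Of 19 m6A writers, erasers and readers 2 were among the chosen loci, the writer subunit *MTB* (AT4G09980) and the YTH reader *ECT10*, and 0 were called, with 0 at an unadjusted p under 0.05. The distal share of *ECT10* lay between 54.9% and 57.7% in all 8 libraries. Of 19 SR splicing factor genes 7 were among them, of which 0 were called and 0 had an unadjusted p under 0.05. Of 19 circadian clock genes 5 were among them and 0 were called, with 2, 0 and 0 at an unadjusted p under 0.05 in *fip37L* plants, *cpsf30-3* and *cpsf30-1*. At the rates over all chosen loci, 0 calls are usual in lists this short and say nothing about these pathways. *PCL1* (*LUX*), an evening clock gene, was picked after its values were seen. It had 165 and 180 distal counts in *fip37L* against 55 and 37 in WT. Its proximal counts were 27 and 14 in *fip37L* and 21 and 19 in WT, a ratio change of 1.87 ± 0.51 (edgeR adjusted p = 0.39). The *fip37L* changes of the 5 clock loci ran from -2.33 to 1.87, with a median of -0.07. *LHY* went the other way, with 6 and 9 proximal beside 79 and 64 distal counts in *fip37L*, and 1 and 2 beside 73 and 81 in WT.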

How the data were processed

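Polyadenylated RNA of 9-day-old seedlings was sequenced with 75-base single-end reads from a stranded kit. Per the study's methods and the submitters' processing notes, the authors removed organellar and ribosomal reads (Bowtie2 2.3.4), mapped the rest to TAIR10 (TopHat2 2.0.7) and counted reads with BEDTools in 500-base windows downstream of transcript models. The deposited values are raw read counts, without normalization. Cufflinks 2.2.1 results were not used here.

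The loci, the gene lists and the tests were chosen with earlier results of these data known. Pairs with at least 8 counts in each window (2406) entered 1 fit in edgeR 4.0.16 (R 4.3.3). It had 16 columns, 1 for each window and library, a term for each library, 4 groups and 4 residual degrees of freedom, with 1 TMM-scaled library size per library. The fit does not model the reads that overlapping windows share. The coefficient was the group difference of the log2 ratio of the windows. Windows alone were fitted over all models with TMM and edgeR's filter on low counts. Tests were two-sided with Benjamini-Hochberg adjustment over the whole table. The code was tested on simulated data in which the windows of a pair shared no reads, so this did not test overlapping windows.

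Named loci were, among calls with shares that did not overlap and at least 20 counts in both windows together in every library, the 4 largest rises and 2 largest falls in free pairs and 2 of each in other pairs for each mutant, the 2 largest of each for *cpsf30-1* against *cpsf30-3*, the loci the study followed up, and called genes of the lists. Intervals and floors (3 counts) cover counting error only. Alternatives were DESeq2 1.42.0, limma 3.58.1 on log2 ratios with a pseudocount of 0.5, other scaling, filters, subsets of pairs, a replicate block and each library left out. Reference sequences are RefSeq's TAIR10.1.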

Additional observations from a re-analysis of the deposited data

How the results depend on the processing

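Of 74 called results for single loci, none changed direction in the alternatives that could be computed for it, but many calls were lost. For loci named without a call the alternatives were not tabulated, and only 34, 24 and 18 of the 74 could be compared for the highest-numbered pair, ends at least 500 bases apart and free pairs. The share was called in *fip37L*, *cpsf30-3*, *cpsf30-1* and *cpsf30-1* against *cpsf30-3* at 12, 3, 49 and 10 loci. The counts were 0, 0, 1 and 1 with only the 2 groups compared in the fit, and 2, 0, 13 and 5 when only pairs free of other genes were fitted, where fewer pairs were adjusted over. The replicate block gave 6, 0, 21 and 2 calls. The replicate numbers did not pair the samples, since same-numbered deviations correlated between -0.0633 and 0.0405. Limma gave 28 loci in *fip37L* and 5 in *cpsf30-3*, no filter on low counts gave 0 in *cpsf30-3*, and pairs with ends at least 500 bases apart gave 5 in *cpsf30-1* against *cpsf30-3* (36 in *cpsf30-1* and 15 in *fip37L* against WT); the cause was not tested. DESeq2 called 9, 3, 40 and 10 loci, of which 4, 2, 33 and 8 were among the edgeR calls. With 1 library left out the counts ran from 0 to 7 in *fip37L*, were 0 in *cpsf30-3* throughout, and ran from 5 to 30 in *cpsf30-1* and from 0 to 5 in *cpsf30-1* against *cpsf30-3*.

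Of the windows of the chosen loci, 209 were called higher and 77 lower in *fip37L*, 50 and 2 in *cpsf30-3* plants, and 355 and 64 in *cpsf30-1*. DESeq2 gave 107 and 48 in *fip37L* and 224 and 36 in *cpsf30-1*. In *cpsf30-3*, 5 were lower when scaled by library size, 134 were higher and 22 lower with no filter on low counts, and 105 and 16 with only the 2 groups compared. With 1 library left out, 65 to 228 were higher and 38 to 95 lower in *fip37L*, 1 to 105 and 1 to 13 in *cpsf30-3* plants, and 188 to 413 and 38 to 77 in *cpsf30-1*. Changes under 1 on the log2 scale were not called by definition, low counts leave the size of several changes uncertain, and strand and annotated ends limit single loci as described above.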
